A study of Homo sapiens with 10 samples.

Results

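The BCL2 family decides at the mitochondrial outer membrane whether a stressed cell lives, and 10 of its genes are described here in MCF10A, a line of human breast epithelium that does not form tumours. Members were taken by symbol, from a list drawn up with earlier results of these data known: BCL2, BCL2L1 and MCL1 (pro-survival), BAX and BAK1 (effectors), and BCL2L11, BBC3, BID, BMF and PMAIP1 (BH3-only). All 10 were found among the 60168 genes of the deposited quantification, and all 10 passed the filter on low counts that kept 15768 genes. MCF10A-YAP5SA cells carried YAP5SA, an activated YAP whose sites of inhibitory serine phosphorylation are replaced, in a lentiviral backbone with human PGK and EF1 promoters. MCF10A-TRAM2 cells carried a vector with the TRAM2 reading frame behind a CMV promoter, and control cells an empty vector whose backbone the sources used here do not name. No clone is named for any group. Cells of every group were transduced, selected with an antibiotic, grown in medium with EGF, insulin, hydrocortisone and horse serum to near confluency and then lysed. By their names, the backbones carry blasticidin resistance for YAP5SA and puromycin resistance for TRAM2. The drug given to each group is not stated, and its effect cannot be told apart from that of the vector. Polyadenylated RNA was sequenced in 2 MCF10A-YAP5SA, 4 MCF10A-TRAM2 and 4 control libraries, although the submitters' design text speaks of 3 biological replicates per condition.

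Libraries held between 8489854 and 16314438 estimated counts. Control libraries A and C, and likewise B and D, were within sampling noise of each other (chi-square per degree of freedom 1.00 and 0.999 over 1449 and 1400 genes with whole counts within 0.001, against 1.16 to 1.24 for the other control pairs). Over all genes, which include counts that Salmon divided among transcripts, both pairs exceeded that noise, at 1.23 and 1.22, against 1.42 to 1.49 for the other control pairs. Each pair was counted as 1 sample, which left 2 MCF10A-YAP5SA, 4 MCF10A-TRAM2 and 2 control samples. On whole counts MCF10A-YAP5SA A and B stood at 1.21 per degree of freedom, and pairs of MCF10A-TRAM2 libraries at 2.07 to 6.12. The fit shares its estimate of spread over all groups, so the MCF10A-TRAM2 spread also enters the p-values of MCF10A-YAP5SA against control. Nothing in the labels says that the samples came from separate cultures, so p-values measure the spread between these samples, which may be technical. The names of the deposited data carry 2 run numbers, and both MCF10A-YAP5SA libraries, MCF10A-TRAM2 A and B and control A and B share the first of them. MCF10A-TRAM2 B lay apart from the other MCF10A-TRAM2 samples on the second principal component (-37.3, against -8.5 to 19.6). YAP1 stood at 337 and 342 CPM (counts scaled to library size by edgeR) in MCF10A-YAP5SA, against 187 and 187 in control, and TRAM2 at 250 to 611 CPM in MCF10A-TRAM2, against 28.4 and 28.9 in control. TRAM2 was also at 242 and 247 CPM in MCF10A-YAP5SA. All 12 mammary epithelial markers were detected in every group, with 6840 to 6910 CPM together in MCF10A-YAP5SA, 7440 to 8740 in MCF10A-TRAM2 and 8250 to 8430 in control. Of these, 6 were called lower in MCF10A-YAP5SA than in control, CDH1 and EPCAM among them, and 3 higher. Fibroblast markers summed to at most 4.26 CPM in any sample, with THY1 at 0 in all of them. The leukocyte markers summed to 81.3 to 81.5 CPM in MCF10A-YAP5SA, 97.8 to 110 in MCF10A-TRAM2 and 100 to 102 in control, nearly all of it LCP1, while CD3E and MS4A1 were at 0 throughout and CD14 was called lower in MCF10A-YAP5SA. The endothelial markers summed to 3.03 to 3.17 CPM in MCF10A-YAP5SA, 12.0 to 17.7 in MCF10A-TRAM2 and 9.70 to 10.7 in control, with VWF at 0 throughout. Of these, PECAM1 averaged 0.25 CPM in MCF10A-YAP5SA, against 11.3 in MCF10A-TRAM2 and 7.70 in control, and was called lower in MCF10A-YAP5SA, and TEK was called higher. Mitochondrial transcripts took 6.107% and 6.296% of the counts in MCF10A-YAP5SA, against 8.23% to 8.90% in all other libraries. These marker levels and the mitochondrial share moved with MCF10A-YAP5SA, and their part in the results below was not tested. In bulk RNA, fewer cells that express a gene and less of its RNA per cell cannot be told apart.

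Apoptosis by the mitochondrial route starts when BAX and BAK1 oligomerize and open the outer membrane, which lets cytochrome c out to activate caspases. Pro-survival proteins hold the effectors and the BH3-only proteins in a groove on their surface, while BH3-only proteins, switched on by stress, detachment or loss of growth factors, fill that groove or engage the effectors directly. In mammary epithelium the BH3-only proteins BIM (encoded by BCL2L11) and BMF are known for killing cells that have lost contact with the matrix.

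What joins the 10 genes is the BH3 motif, a short helix around an invariant leucine, a small residue and an aspartate. In the effectors and the BH3-only proteins it is what fills the groove of the pro-survival proteins. To show how alike and how different the motifs are, the 13 codons around that core were read from the coding sequence of each canonical transcript (GENCODE v44lift37, GRCh37). Each gene had exactly 1 match, within 1 exon. The capitals mark the codons of the leucine, of the glycine or alanine, and of the aspartate:
BCL2: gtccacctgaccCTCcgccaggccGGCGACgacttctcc
BCL2L1: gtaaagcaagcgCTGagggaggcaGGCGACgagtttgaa
MCL1: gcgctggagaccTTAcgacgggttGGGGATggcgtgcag
BAX: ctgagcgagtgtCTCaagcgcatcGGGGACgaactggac
BAK1: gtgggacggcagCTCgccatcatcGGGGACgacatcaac
BCL2L11: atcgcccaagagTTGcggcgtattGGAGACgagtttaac
BBC3: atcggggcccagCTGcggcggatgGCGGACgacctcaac
BID: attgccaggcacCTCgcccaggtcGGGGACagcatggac
BMF: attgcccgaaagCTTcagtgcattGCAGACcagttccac
PMAIP1: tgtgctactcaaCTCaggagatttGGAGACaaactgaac
The small residue was encoded by a GCN alanine codon in BBC3 and BMF and by a GGN glycine codon in the other 8 genes, and the aspartate codon was GAC in all but MCL1, which has GAT. The leucine was codon 97 of 239 in BCL2, codon 90 of 233 in BCL2L1 and codon 213 of 350 in MCL1, but codon 29 of 54 in PMAIP1, whose product is little more than its BH3 motif. In GRCh37 the windows lay on the plus strand at chr19:49459032-49459070 (BAX), chr2:111907668-111907706 (BCL2L11) and chr18:57569893-57569931 (PMAIP1). They lay on the minus strand at chr18:60985585-60985623 (BCL2), chr20:30309728-30309766 (BCL2L1), chr1:150551344-150551382 (MCL1), chr6:33543167-33543205 (BAK1), chr19:47729839-47729877 (BBC3), chr22:18222184-18222222 (BID) and chr15:40396399-40396437 (BMF).

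Activated YAP was accompanied by changes on both sides of the family. In MCF10A-YAP5SA against control, the pro-survival genes BCL2L1 and BCL2 and the BH3-only gene PMAIP1 rose, and the BH3-only genes BCL2L11 and BMF fell. MCL1, BAX, BAK1, BBC3 and BID did not pass. Calls needed a log2 fold change over 0.5 in size and an adjusted p below 0.05 (edgeR's quasi-likelihood test, Benjamini-Hochberg over all genes). Thus 5 of 10 members were called, where 29.4% of all genes tested were called in this comparison (15.3% higher and 14.1% lower). The members' median log2 fold change was 0.05, against -0.01 over all genes. Across 16 alternative settings 4 to 6 members were called, and BCL2L1, BMF and PMAIP1 were called in each of them.

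**Figure D1:**
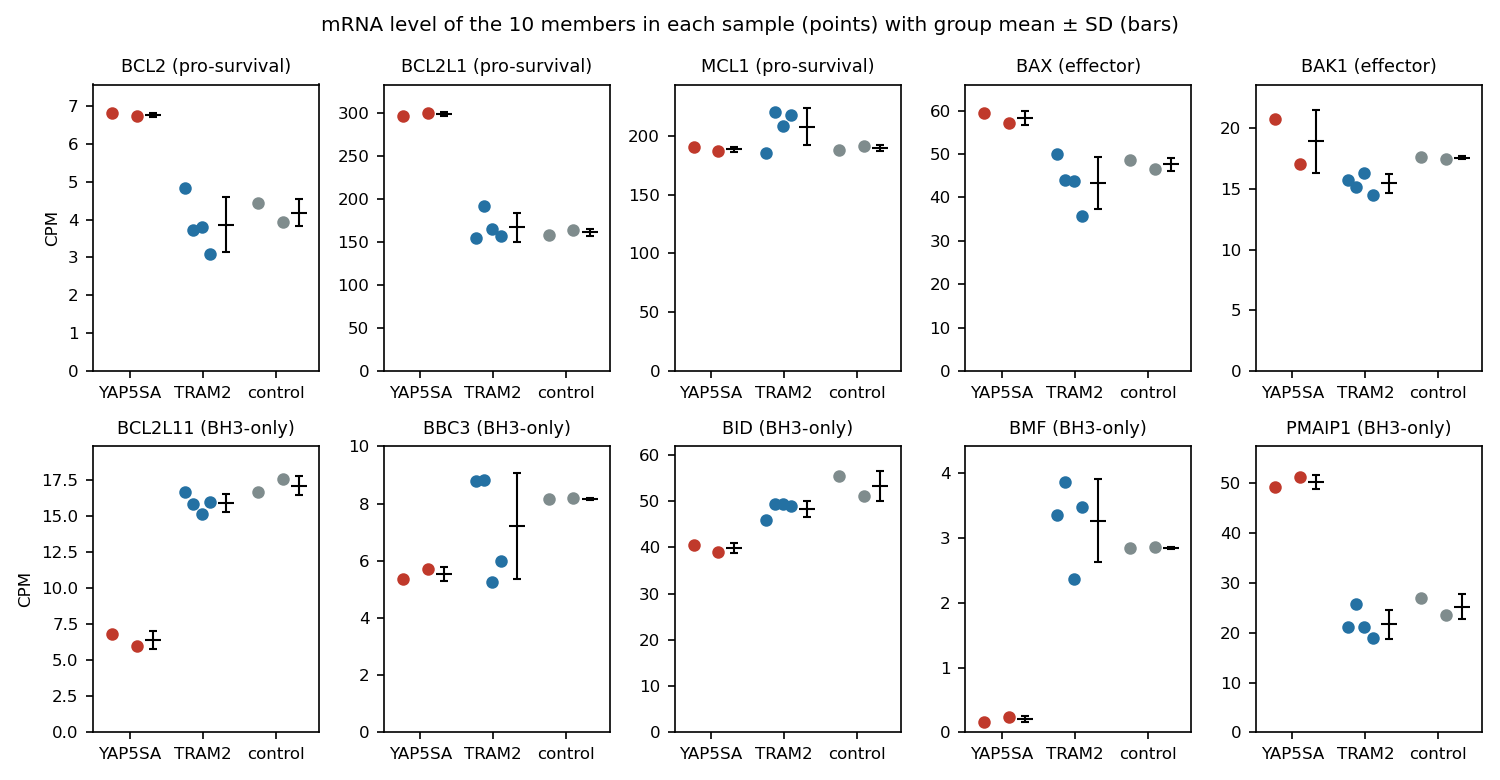
Levels in CPM (vertical axes, each from 0) of the 10 members in each MCF10A-YAP5SA (red), MCF10A-TRAM2 (blue) and control (grey) sample, with the group mean and SD as a bar (n = 2, 4 and 2). The MCF10A-YAP5SA points lie above all other points for BCL2, BCL2L1, BAX and PMAIP1 and below all others for BCL2L11, BID and BMF. The share of all genes that separate in this way was not counted. In MCF10A-YAP5SA against control 53.9% of all genes had an unadjusted p under 0.05 by edgeR.

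BCL2L1 encodes BCL-XL, the pro-survival protein that restrains both BAX and BAK1. It lies on chromosome 20 (30252255 to 30311792, minus strand, GRCh37). Its mRNA stood at 297 and 301 CPM in MCF10A-YAP5SA, at 155, 192, 165 and 157 CPM in MCF10A-TRAM2 A to D, and at 159 and 164 CPM in control. Both MCF10A-YAP5SA samples lay above every other sample. The rise over control was 0.89 on the log2 scale (SE 0.08, fold 1.85, adjusted p = 3.91e-06 by edgeR), and within the first run alone it was 0.91 (SE 0.09).

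BCL2, the founding member of the family, lies on chromosome 18 (60790579 to 60987361, minus strand) and was far scarcer. It had 6.81 and 6.74 CPM in MCF10A-YAP5SA, 4.84, 3.73, 3.82 and 3.09 CPM in MCF10A-TRAM2 A to D, and 4.44 and 3.93 CPM in control. The MCF10A-YAP5SA samples did not overlap with the others, but these levels rest on 81 and 87 counts in MCF10A-YAP5SA and on 97 and 73 in control. The log2 fold change over control was 0.69 (SE 0.21, fold 1.61, adjusted p = 0.0121 by edgeR). The call did not hold with DESeq2 (adjusted p = 0.0626), without the second control sample (0.0827) or without MCF10A-YAP5SA A (0.0567) or B (0.0554, the last 3 by edgeR), and adjusted p ran from 0.00167 to 0.0827 over the 16 alternatives. With transcript length offsets the value was 1.36.

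MCL1 encodes a short-lived pro-survival protein that binds BIM, NOXA and BAK and is controlled largely by its turnover. The gene lies on chromosome 1 (150533371 to 150552214, minus strand). It had 190 and 187 CPM in MCF10A-YAP5SA, 185.3, 220.4, 208.5 and 217.6 CPM in MCF10A-TRAM2 A to D, and 188 and 192 CPM in control. MCF10A-YAP5SA and control overlapped, and 3 of the 4 MCF10A-TRAM2 samples lay above both. The log2 fold change in MCF10A-YAP5SA was -0.01, with a 95% interval from -0.16 to 0.14 (adjusted p = 0.925 by edgeR).

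Of the effectors, BAX stood at 59.5 and 57.2 CPM in MCF10A-YAP5SA, at 49.99, 44.04, 43.72 and 35.6 CPM in MCF10A-TRAM2 A to D, and at 48.6 and 46.6 CPM in control. The MCF10A-YAP5SA samples were the highest, yet the difference from control did not pass (log2 fold change 0.29, SE 0.12, adjusted p = 0.0623 by edgeR). Within the first run alone it was 0.32 (SE 0.08) and passed the test (adjusted p = 0.00518 by edgeR), but not the size limit. Over the 16 alternatives its size ran from 0.245 to 0.331, under the 0.5 needed for a call. BAX, which moves from the cytosol to the membrane when activated, lies on chromosome 19 (49458072 to 49465055, plus strand). BAK1, which resides in the membrane, lies on chromosome 6 (33540324 to 33548070, minus strand). It had 20.8 and 17.1 CPM in MCF10A-YAP5SA, 15.8, 15.2, 16.4 and 14.5 CPM in MCF10A-TRAM2 A to D, and 17.7 and 17.5 CPM in control. Its MCF10A-YAP5SA samples fell on either side of the control samples (log2 fold change 0.10, 95% interval -0.13 to 0.33, adjusted p = 0.459 by edgeR), and without MCF10A-YAP5SA A the sign turned (-0.03).

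The largest falls were in 2 BH3-only genes. BCL2L11 encodes BIM, which binds every pro-survival protein as well as BAX and BAK, and lies on chromosome 2 (111876955 to 111926021, plus strand). It stood at 6.81 and 5.96 CPM in MCF10A-YAP5SA, at 16.6, 15.8, 15.1 and 16.0 CPM in MCF10A-TRAM2 A to D, and at 16.6 and 17.6 CPM in control. The MCF10A-YAP5SA samples were below every other sample by a wide margin, and the other 6 samples lay close together. The log2 fold change was -1.42 (SE 0.12, fold 0.374, adjusted p = 1.83e-07 by edgeR), and -1.41 within the first run alone. With offsets for average transcript length its size was similar (-1.32) but it did not pass (adjusted p = 0.0682 by edgeR). Those offsets rest on how reads were divided among the 25 transcripts of the gene, 7 of them under 500 bases.

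BMF, which is tied to the cytoskeleton in attached cells, lies on chromosome 15 (40380091 to 40401093, minus strand) and was nearly absent in MCF10A-YAP5SA. It had 2 and 3 counts there (0.17 and 0.23 CPM), 45, 56, 39 and 55 counts in MCF10A-TRAM2 A to D (2.36 to 3.87 CPM), and 62 and 53 counts in control (2.84 and 2.86 CPM). The groups were far apart, although the gene was scarce in every sample. The ratio of summed counts scaled by library size, MCF10A-YAP5SA over control, was 0.0708 with an exact 95% counting interval from 0.0226 to 0.170. The fitted log2 fold change of -3.77 (SE 0.43, adjusted p = 4.97e-06 by edgeR) depends on the prior count at such levels, and it was -3.58 in the first run alone.

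PMAIP1 went the other way from BCL2L11 and BMF. It encodes NOXA, a p53 target that binds MCL1 selectively and sends it to degradation, and lies on chromosome 18 (57567228 to 57571537, plus strand). Its level was 49.2 and 51.1 CPM in MCF10A-YAP5SA, 21.1, 25.7, 21.1 and 18.9 CPM in MCF10A-TRAM2 A to D, and 27.0 and 23.5 CPM in control. Both MCF10A-YAP5SA samples lay far above all others. The rise over control was 0.99 on the log2 scale (SE 0.11, fold 1.98, adjusted p = 8.78e-06 by edgeR), and 0.97 within the first run alone.

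The other BH3-only members moved less. BBC3 encodes PUMA, a p53 target that binds every pro-survival protein, and lies on chromosome 19 (47724079 to 47736023, minus strand). It had 5.38 and 5.73 CPM in MCF10A-YAP5SA, 8.790, 8.836, 5.268 and 5.996 CPM in MCF10A-TRAM2 A to D, and 8.15 and 8.19 CPM in control. MCF10A-YAP5SA lay below control and below MCF10A-TRAM2 A and B, but level with MCF10A-TRAM2 C and D. The difference from control was -0.55 (SE 0.23) and did not pass (adjusted p = 0.0676 by edgeR). It passed in 7 of the 16 alternatives, among them the fit without MCF10A-TRAM2 B (adjusted p = 0.0348 by edgeR) or C (0.0340), that of the first run alone (0.0183) and that of both compared groups alone. Over all 16 the adjusted p of edgeR or DESeq2 ran from 0.00283 to 0.249.

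BID, which caspase-8 cleaves to link death receptors to mitochondria, lies on chromosome 22 (18216904 to 18257536, minus strand). It stood at 40.6 and 39.1 CPM in MCF10A-YAP5SA, at 45.8, 49.3, 49.4 and 49.0 CPM in MCF10A-TRAM2 A to D, and at 55.5 and 51.0 CPM in control. The groups did not overlap, with MCF10A-YAP5SA lowest and control highest. The difference of MCF10A-YAP5SA from control had an adjusted p of 0.000195 by edgeR, but at -0.42 (SE 0.07) its size stayed under the 0.5 needed for a call.

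**Figure D2:**
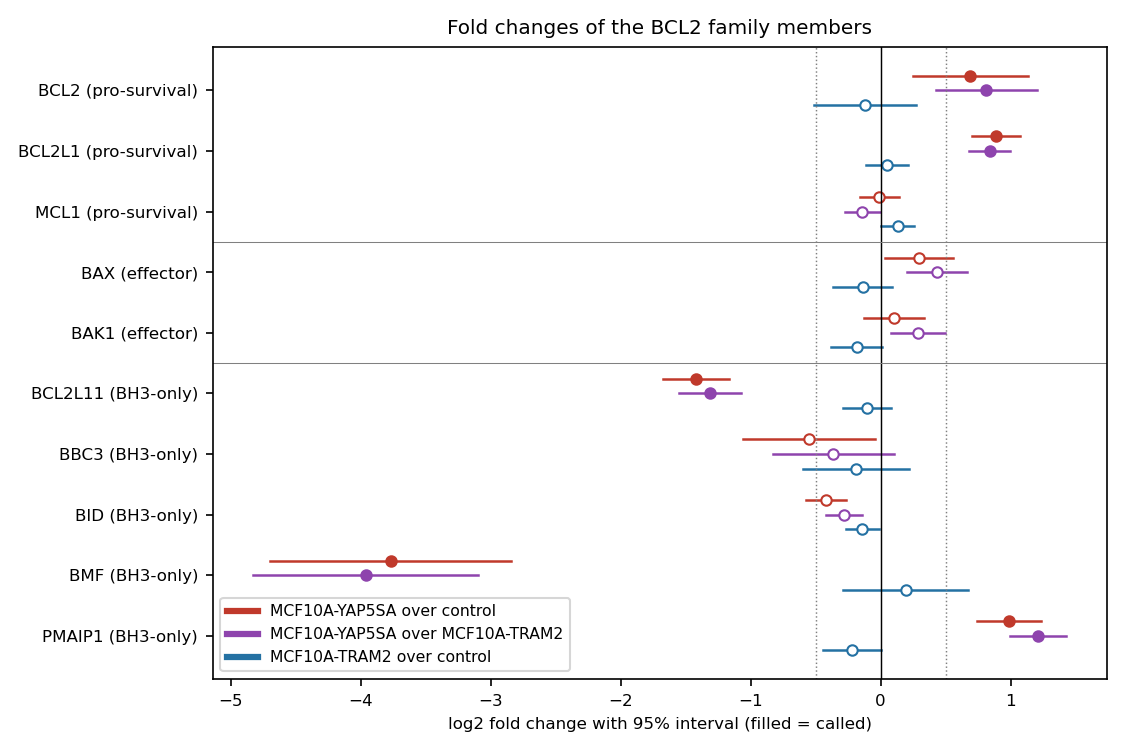
Log2 fold changes (horizontal axis) of the 10 members with 95% intervals, for MCF10A-YAP5SA over control (red), MCF10A-YAP5SA over MCF10A-TRAM2 (purple) and MCF10A-TRAM2 over control (blue). Filled points passed the test and the size limit of 0.5 (dotted lines), as BCL2, BCL2L1, BCL2L11, BMF and PMAIP1 did in both comparisons of MCF10A-YAP5SA and no member did in MCF10A-TRAM2 over control.

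The promoters of the members were compared because genes on the same side of the family moved in opposite directions. RefSeq start sites (GRCh38.p14) were found for 9 of the 10 members, with 15 windows of 250 bases before a start, and MCL1 was not matched. The motifs searched on both strands were GGAATG for TEAD, the DNA-binding partner of YAP, GTAAACA for FOXO factors, which are known to drive BCL2L11 when growth factors are withdrawn, CACGTG, the E-box bound by MYC and MAX, and the general promoter motifs GGGCGG (SP and KLF factors) and CCAAT. The TEAD motif was in none of the members' windows, where 11.9% of 35116 promoters held it. Enhancers far from the start, where the paper places most YAP and TEAD4 binding, were not searched. The absence of the motif from these windows says nothing of them. The E-box was in the windows of BAX, BBC3 and BID (6.34% of all), none of which was called. GGGCGG was in the windows of 6 members (BAK1, BAX, BCL2L11, BID, BMF and PMAIP1; 42.6% of all) and CCAAT in those of 5 (BAK1, BAX, BBC3, BCL2L11 and BMF; 32% of all). The FOXO motif was in BCL2L11 alone (2.98% of all). Because BCL2L11 was the more abundant of the members that fell, its window is shown, chr2:111120664-111120913 on the plus strand, with the FOXO motif in capitals:
BCL2L11: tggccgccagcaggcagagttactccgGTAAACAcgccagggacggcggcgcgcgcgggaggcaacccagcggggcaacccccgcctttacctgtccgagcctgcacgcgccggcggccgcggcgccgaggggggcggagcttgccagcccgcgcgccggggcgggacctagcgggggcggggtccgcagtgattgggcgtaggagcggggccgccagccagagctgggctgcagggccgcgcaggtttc
A member was counted if any of its windows held the motif, while the shares of all promoters are per window. The counts and the shares are thus unlike measures. A match is a description of these letters and not of a bound site.

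In MCF10A-TRAM2 against control neither edgeR nor DESeq2 called a member. Over all genes edgeR called 0.0571% (0.0317% higher and 0.0254% lower). The members' log2 fold changes ran from -0.22 (PMAIP1) to 0.19 (BMF), and 3 had an unadjusted p under 0.05 (BID, MCL1 and PMAIP1), where 12.6% of all genes did. BCL2L1 differed by 0.05 (95% interval -0.11 to 0.21), BCL2L11 by -0.11 (-0.29 to 0.08) and BMF by 0.19 (-0.29 to 0.67). The intervals of BCL2L1 and BCL2L11 thus leave out changes of the size seen in MCF10A-YAP5SA. The number of called members stayed at 0 in all 17 alternatives. TRAM2 itself, the gene of the vector, was 3.90 higher (SE 0.45) with an adjusted p of 0.0725 by edgeR. It was called by DESeq2 and in 6 of the other alternatives by edgeR, among them the fits without MCF10A-TRAM2 B (adjusted p = 0.0418) or C (0.0289).

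In the direct comparison of MCF10A-YAP5SA with MCF10A-TRAM2, the 5 called members and their directions were those of the comparison with control. Over all genes 29.4% were called (14.9% higher and 14.6% lower). The log2 fold changes, MCF10A-YAP5SA over MCF10A-TRAM2, were 0.84 for BCL2L1 (SE 0.07), 0.81 for BCL2 (SE 0.18, adjusted p = 0.00176 by edgeR) and 1.21 for PMAIP1 (SE 0.10), and they were -1.31 for BCL2L11 (SE 0.11) and -3.96 for BMF (SE 0.40). BAX (0.43, adjusted p = 0.00518), BAK1 (0.29, 0.0223) and BID (-0.28, 0.00204, all by edgeR) passed the test without reaching 0.5. Without MCF10A-TRAM2 A, BAX reached 0.50 and was called. These comparisons share the MCF10A-YAP5SA samples and are not independent.

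For BBC3 the MCF10A-TRAM2 samples of the first run lay well above those of the second, although the difference was not called. Scaled over the 10 single libraries, BBC3 read 8.82 and 8.88 CPM for A and B, but only 5.28 and 6.01 CPM for C and D. Control libraries of the first run had 7.70 and 8.54 CPM, and those of the second run 8.68 and 7.74 CPM. The log2 difference of A and B from C and D was 0.65 (SE 0.14), with an unadjusted p of 0.000611 and an adjusted p of 0.130 by edgeR, so it was not called, where 0.0634% of all genes were. Against the control libraries of their own run, BBC3 differed by 0.12 in A and B and by -0.55 in C and D, and neither passed (adjusted p = 0.796 and 0.107 by edgeR). Whether run or culture separates these samples cannot be told apart.

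To compare levels between genes, CPM were divided by the length of the canonical transcript in kilobases. This scale was chosen after seeing the data, in place of the deposited TPM, Salmon's length-scaled measure, because transcripts under 500 bases carried 85.1% to 91.2% of the TPM of BAX, 78.6% to 85.4% of that of BID and 75% to 96.3% of that of BCL2L11. On the scale of CPM per kilobase, BCL2L1 was the most abundant member in every group, at 116 ± 0.88 in MCF10A-YAP5SA, at 65.0 ± 6.5 in MCF10A-TRAM2 and at 62.7 ± 1.6 in control (mean ± SD, n = 2, 4 and 2). BAX was at 73.4 ± 2.0 in MCF10A-YAP5SA, at 54.5 ± 7.4 in MCF10A-TRAM2 and at 59.9 ± 1.7 in control. These BAX values rest on the length of a minor transcript. The canonical BAX transcript, of 795 bases, took only 8.94% to 14.8% of the BAX counts. A form with a longer coding sequence took 27.0% to 39.9%. The order of BCL2L1 and BAX depends on the scale. By deposited TPM, BAX was the higher, with 153 against 129 for BCL2L1 in MCF10A-YAP5SA and 128 against 70.5 in control. By TPM over transcripts of at least 500 bases, BAX was far lower, with 18.4 against 89.6 for BCL2L1 in MCF10A-YAP5SA and 15.0 against 49.7 in control. MCL1 followed at 47.8 ± 0.55 in MCF10A-YAP5SA, at 52.6 ± 4.0 in MCF10A-TRAM2 and at 48.1 ± 0.63 in control. In MCF10A-TRAM2 the samples of BAX (44.8 to 62.9) and MCL1 (46.9 to 55.8) overlapped, and so did those of BAX and BCL2L1 (60.3 to 74.4). By CPM per kilobase the order of BID and PMAIP1 differed between groups. PMAIP1 was above BID in MCF10A-YAP5SA (25.7 ± 0.69, against 18.1 ± 0.49 for BID) and below it in MCF10A-TRAM2 (11.1 ± 1.5, against 22.0 ± 0.77) and in control (12.9 ± 1.3, against 24.2 ± 1.4). This order depends on the scale too. By deposited TPM, BID was above PMAIP1 in MCF10A-YAP5SA (69.4 against 23.5), MCF10A-TRAM2 (88.6 against 10.9) and control (93.9 against 12.6). By TPM over transcripts of at least 500 bases, BID was below PMAIP1 in MCF10A-YAP5SA (10.4 against 23.5) and above it in control (17.1 against 12.6). By CPM per kilobase, BAK1, BBC3 and BCL2L11 came next in every group. By deposited TPM, BCL2L11 (32.1) was above BAK1 (4.07) and BBC3 (2.65) in control. By CPM per kilobase, BCL2 and BMF were lowest in MCF10A-TRAM2 and control, where BCL2 and BMF did not differ beyond their spread.

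**Figure D3:**
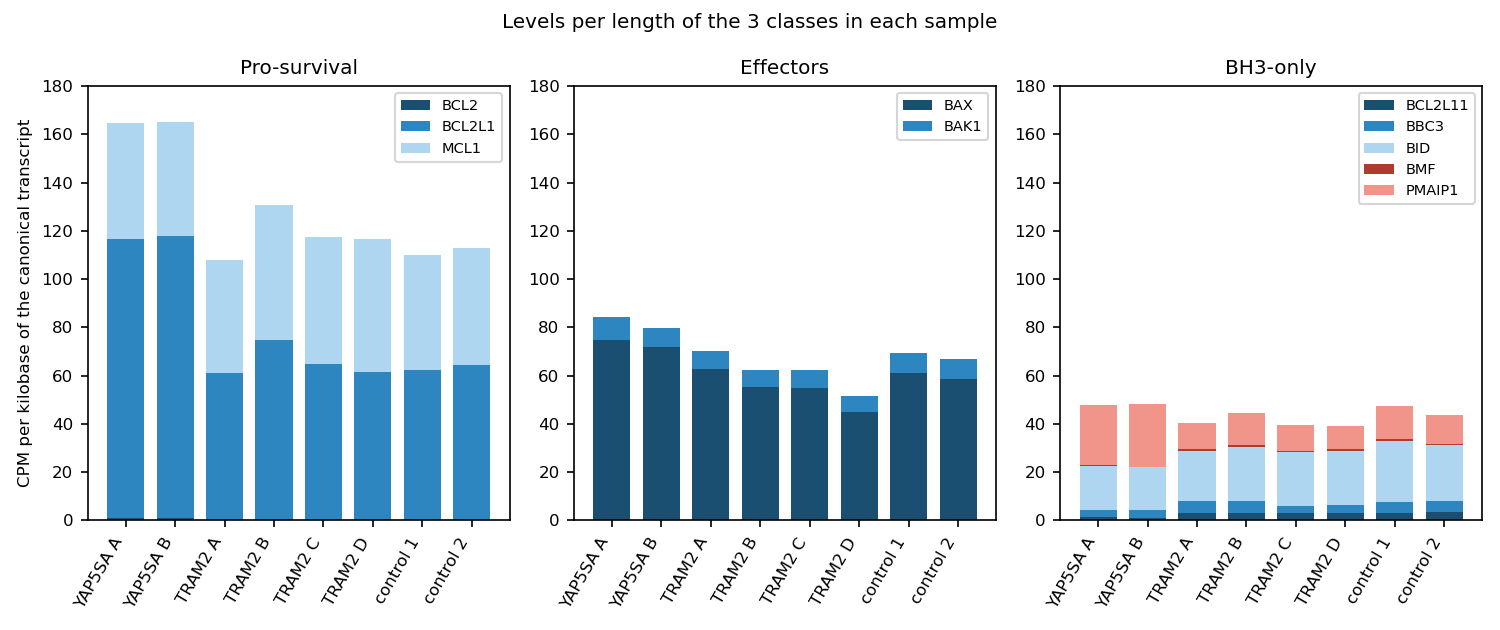
Levels per length (CPM per kilobase of the canonical transcript, stacked by gene) of the pro-survival, effector and BH3-only members in each sample, on a common vertical axis from 0. The pro-survival sum is 165 in both MCF10A-YAP5SA samples and 108 to 131 in all others, while the BH3-only sum has a similar height in all samples but a larger PMAIP1 share in MCF10A-YAP5SA.

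Summed over the classes, pro-survival mRNA was at 165 and 165 CPM per kilobase in MCF10A-YAP5SA, at 108, 131, 118 and 117 in the 4 MCF10A-TRAM2 samples, and at 110 and 113 in control. On this scale the BH3-only sum was at 48.0 and 48.4 in MCF10A-YAP5SA, at 40.4, 44.3, 39.6 and 39.1 in MCF10A-TRAM2, and at 47.4 and 43.8 in control. The lower values of BID and of the scarce BCL2L11 and BMF were thus offset in this sum by the rise of PMAIP1. By deposited TPM the BH3-only sum was lower in MCF10A-YAP5SA (106.8 and 108.3) than in MCF10A-TRAM2 (116.4 to 138.1) and control (143.7 and 140.1). The ratio of pro-survival to all pro-death mRNA by deposited TPM was 0.674 and 0.654 in MCF10A-YAP5SA, 0.414, 0.555, 0.459 and 0.488 across the MCF10A-TRAM2 samples, and 0.403 and 0.450 in control. By CPM per kilobase it was 1.24 and 1.29 in MCF10A-YAP5SA, 0.976, 1.23, 1.15 and 1.29 in MCF10A-TRAM2, and 0.943 and 1.02 in control. By CPM without a length correction it was 2.71 and 2.80 in MCF10A-YAP5SA, 2.14 to 2.64 in MCF10A-TRAM2 and 1.99 and 2.15 in control. By TPM over transcripts of at least 500 bases the ratio was 2.33 and 2.30 in MCF10A-YAP5SA, 1.74 to 2.38 in MCF10A-TRAM2 and 1.76 and 1.78 in control. MCF10A-YAP5SA lay above control on all 4 scales. It lay above every MCF10A-TRAM2 sample by deposited TPM and by CPM, and overlapped with them on the other 2.

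Single pairs differed more than the sums. By CPM per kilobase, BCL2L1 mRNA exceeded BCL2L11 mRNA 86.4 and 99.8 times in MCF10A-YAP5SA, 18.5 to 23.99 times in MCF10A-TRAM2 and 18.9 and 18.5 times in control. The size of this excess depends on the scale. By deposited TPM, BCL2L1 stood at 130.1 and 127.5 against 12.44 and 13.08 for BCL2L11 in MCF10A-YAP5SA. In control it stood at 68.65 and 72.38 against 27.89 and 36.22. The canonical BCL2L11 transcript, whose length was used, took 0% and 52.86% of the gene's counts in MCF10A-YAP5SA A and B. MCL1 and PMAIP1, whose products bind each other, came closer together in MCF10A-YAP5SA. Their ratio was 1.91 and 1.81 there, 4.23 to 5.68 in MCF10A-TRAM2 and 3.45 and 4.03 in control. The ratio of BCL2L1 to PMAIP1 overlapped between MCF10A-YAP5SA (4.57 and 4.45) and control (4.46 and 5.30). These ratios describe mRNA, carry no test, and say nothing of protein.

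Both BCL2L1 and MCL1 are spliced into short forms with the opposite, pro-death function, so the shares of the forms were compared. Transcripts that encode the short form of 170 codons (BCL-XS) took 15.5% and 16.0% of the BCL2L1 counts in MCF10A-YAP5SA, 20.9%, 22.6%, 16.8% and 23.8% across the MCF10A-TRAM2 samples, and 16.4% and 17.6% in control. Those of the form of 233 codons (BCL-XL) took 62.5% and 66.6% in MCF10A-YAP5SA, 59.0% to 63.6% in MCF10A-TRAM2 and 63.5% and 62.2% in control. The BCL-XS shares were lowest in MCF10A-YAP5SA, by less than the spread among the MCF10A-TRAM2 samples. The MCL1 transcript for the short form of 271 codons took 18.9% and 19.2% in MCF10A-YAP5SA, 17.03% to 19.7% in MCF10A-TRAM2 and 18.7% and 19.2% in control, which overlap. These shares are estimates that divide reads shared by several transcripts.

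Of 13 further genes of the family, 9 passed the filter on low counts, and in MCF10A-YAP5SA against control 4 were called higher and 1 lower, where 15.3% of all genes were called higher and 14.1% lower. BIK, a BH3-only gene whose product sits in the endoplasmic reticulum, had 2.52 and 2.79 CPM in MCF10A-YAP5SA, 6.78, 7.59, 8.17 and 7.89 CPM in MCF10A-TRAM2 A to D, and 8.60 and 7.54 CPM in control. It fell by 1.60 on the log2 scale (SE 0.18, adjusted p = 4.18e-06 by edgeR), so that BIK stood beside BCL2L11 and BMF in direction. BAD, a BH3-only gene whose product is held inactive by growth factor kinases, rose by 0.59 (SE 0.10), with 29.4 and 28.3 CPM in MCF10A-YAP5SA, 15.8 to 20.3 in MCF10A-TRAM2 and 19.2 and 18.9 in control. BOK, an effector-like gene, rose by 0.73 (SE 0.09), with 28.6 and 29.6 CPM in MCF10A-YAP5SA, 15.8 to 18.8 in MCF10A-TRAM2 and 17.6 and 17.5 in control. The mitophagy receptors BNIP3 (0.70, SE 0.12) and BNIP3L (0.74, SE 0.10) rose as well, BNIP3 with 100 and 98.3 CPM in MCF10A-YAP5SA, 57.9 to 78.3 in MCF10A-TRAM2 and 58.0 and 64.0 in control. With transcript length offsets neither BAD (0.48) nor BOK (0.32) was called, and BCL2L2 was (0.68).

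BCL2L2, which encodes the pro-survival BCL-W, differed by 0.26 (SE 0.09) and BCL2L13 by -0.18 (SE 0.06), both with an adjusted p under the limit (0.0249 and 0.0231 by edgeR) and a size below 0.5. BCL2L12 (-0.18, adjusted p = 0.125 by edgeR) and HRK (0.21, SE 0.54) did not pass. HRK had 0.50 and 1.78 CPM in the 2 MCF10A-YAP5SA samples, so its direction rests on MCF10A-YAP5SA B and turned without it (-0.97). BCL2A1, BCL2L10, BCL2L14 and BCL2L15 stayed under the filter, and BCL2L10 had no count in any sample. In MCF10A-TRAM2 against control edgeR and DESeq2 called 0 of the 9, with 2 at an unadjusted p below 0.05 (BCL2L12 and BNIP3L). Over all genes edgeR called 0.0571% in that comparison, and 12.6% had an unadjusted p below 0.05.

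Around the family, 8 lists of apoptosis genes and regulators with 87 genes were examined, of which 82 were tested. In MCF10A-YAP5SA against control 30 were called, 15 higher and 15 lower, where 29.4% of all genes were called. In MCF10A-TRAM2 against control both edgeR and DESeq2 called 0 of them, with 15 at an unadjusted p below 0.05, where 12.6% of all genes were. Among the apoptosome and caspase genes 2 of 11 rose, 1 fell and 8 did not pass. APAF1, the scaffold of the apoptosome, had 36.6 and 40.0 CPM in MCF10A-YAP5SA, 25.2 to 27.6 in MCF10A-TRAM2 and 24.8 and 23.4 in control. It rose by 0.67 (SE 0.08), and CASP6 fell by 0.60 (SE 0.15).

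Among the inhibitors of apoptosis 1 of 6 rose and 1 fell, where 15.3% of all genes were called higher and 14.1% lower. BIRC2 and BIRC3, neighbouring genes for the ubiquitin ligases cIAP1 and cIAP2, moved apart. BIRC2 had 81.4 and 87.4 CPM in MCF10A-YAP5SA, 46.5 to 52.2 in MCF10A-TRAM2 and 48.8 and 48.6 in control (log2 fold change 0.79, SE 0.07). BIRC3 had 32.1 and 30.6 CPM in MCF10A-YAP5SA, 63.5 to 70.6 in MCF10A-TRAM2 and 75.9 and 77.7 in control (-1.29, SE 0.07). Of the death receptor pathway 3 of 11 rose, 2 fell and 6 did not pass. FAS, a death receptor, rose by 0.65 (SE 0.07), and so did CFLAR, which blocks caspase-8 at the receptor (0.68, SE 0.07). TNFRSF10A, a receptor for TRAIL, fell by 0.63 (SE 0.08) and CASP8, the initiator that cleaves BID, by 0.53 (SE 0.07), a size that came under 0.5 without MCF10A-YAP5SA A (-0.47).

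**Figure D4:**
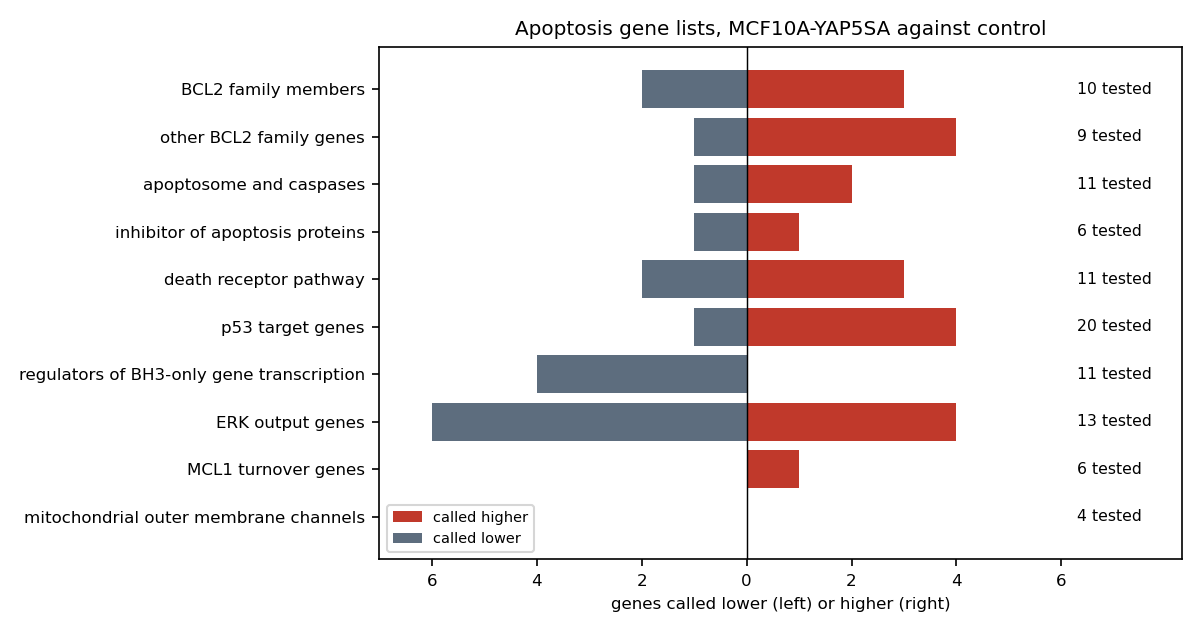
Number of genes called lower (left, grey) or higher (right, red) in MCF10A-YAP5SA against control in each list of apoptosis genes and regulators, with the number tested at the right. The ERK output genes and the regulators of BH3-only gene transcription have the most genes called lower, 6 of 13 and 4 of 11. Over all genes 14.1% were called lower and 15.3% higher. No list was tested as a set.

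Because PMAIP1, BBC3 and BAX are known p53 targets, 20 other p53 targets were set beside them, of which 4 rose, 1 fell and 15 did not pass in MCF10A-YAP5SA. These 5 of 20 are no larger a share than the 29.4% of all genes called. GADD45A, a stress sensor, had 122 and 122 CPM in MCF10A-YAP5SA, 30.2 to 45.1 in MCF10A-TRAM2 and 37.9 and 35.5 in control (log2 fold change 1.73, SE 0.16). ZMAT3, an RNA-binding protein, rose by 0.79 (SE 0.09), TP53INP1 rose by 1.45 (SE 0.24) and TP53AIP1 fell by 3.42 (SE 0.62) at no more than 2.29 CPM in any sample. CDKN1A, the p53 target that arrests the cell cycle, did not pass (0.43, SE 0.16, adjusted p = 0.0748 by edgeR), nor did MDM2 (0.02, SE 0.10). The list's median log2 fold change was 0.16, against -0.01 over all genes.

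Of 11 regulators of BH3-only gene transcription tested, 4 fell, none rose and 7 did not pass. Over all genes 14.1% were called lower and 15.3% higher, and the list was not tested as a set. FOXO1, a driver of BCL2L11, had 17.5 and 17.4 CPM in MCF10A-YAP5SA, 35.4 to 41.3 in MCF10A-TRAM2 and 31.5 and 30.9 in control (log2 fold change -0.84, SE 0.09), but with transcript length offsets its sign turned (1.14). FOXO3, a related factor named after its value was seen, differed the other way (0.43, SE 0.06), under the size limit. MYC fell by 0.59 (SE 0.05) and MYB by 2.84 (SE 0.36). TP63, the p53 relative of basal epithelium, fell by 4.45 (SE 0.46), with 1 and 2 counts in MCF10A-YAP5SA, 36 to 58 in MCF10A-TRAM2 and 68 and 46 in control.

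ERK, the kinase downstream of EGF, is known to mark BIM for degradation and to hold down its gene. For that reason 13 genes that follow ERK were examined. Of these, 6 fell, 4 rose and 3 did not pass, where 14.1% of all genes were called lower and 15.3% higher. PHLDA1 (-1.24, SE 0.07), IER3 (-1.18, SE 0.08), SPRY2 (-1.55, SE 0.12) and DUSP4 (-0.79, SE 0.07) fell. IER3 had 39.5 and 39.1 CPM in MCF10A-YAP5SA, 75.02 to 91.5 in MCF10A-TRAM2 and 86.1 and 91.6 in control. The genes that rose, named after their values were seen, were ETV5, DUSP5, SPRED1 and SPRY4, so the list did not move as 1 group (median -0.39). Of 6 genes for MCL1 turnover only BTRC, a ubiquitin ligase subunit, was called (0.60, SE 0.11), and HUWE1, the ligase also called MULE, differed by 0.40 (SE 0.06). Among the mitochondrial outer membrane channel genes none of 4 was called by edgeR, where 1 had an unadjusted p under 0.05. That gene was VDAC1 (-0.22, SE 0.05), and VDAC2, which holds BAK at the membrane, differed by -0.02 (SE 0.05).

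The genes with the pattern most like the largest riser and the largest faller were sought among 12523 tested protein-coding genes, by the Euclidean distance of centred log2 CPM over the 8 samples. Nearest to PMAIP1 were EPDR1 (distance 0.18), FAM92A (0.22) and CNN3 (0.25), with log2 fold changes in MCF10A-YAP5SA of 0.98, 1.01 and 1.02. Nearest to BMF were ATP2C2 (0.38), PCDH1 (0.45) and the keratin KRT16 (0.45), with log2 fold changes of -3.50, -3.27 and -3.31. The 3 genes nearest to BMF differed in MCF10A-TRAM2 by 0.13, 0.01 and 0.29.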

How the data were processed

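Poly(A) RNA from MCF10A cells was made into libraries with an Illumina TruSeq RNA kit. Per the labels and the methods, the authors trimmed the reads with cutadapt and quantified transcripts with Salmon, whose estimated counts are the values deposited. The deposited TPM are scaled by Salmon to transcript length and library size, so short transcripts weigh heavily in them. For tool versions, build and strand setting: not given in the sources used here.

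Estimated counts were summed per gene over 226030 transcripts and rounded. Control libraries that agreed within sampling noise over genes with whole counts were summed. edgeR 4.0.16 in R 4.3.3 (filterByExpr, TMM, robust quasi-likelihood fit over all groups) tested 15768 genes. DESeq2 1.42.0, other filters, normalizations and sample sets, and offsets for transcript length were the alternatives. The test was checked on simulated data.

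Named were all members, the rest of the family, YAP1, TRAM2, up to 4 called genes of each list by smallest adjusted p (where none was called, up to 2 with the highest mean CPM), and the 3 genes most like the largest riser and faller. Of the genes so chosen, 1 is not reported here. Members and lists were chosen with earlier results of these data known. Coordinates and codons come from GENCODE v44lift37 (GRCh37), promoters from RefSeq (GRCh38.p14). Intervals on counts cover counting error only.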

Additional observations from a re-analysis of the deposited data

Results flagged for a closer look

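In 21 groups of 4 MCF10A-TRAM2 samples examined, 1 sample lay far from the other 3 in 2 genes, and chance flags about 1 in 20 such groups. BID was at 45.81 CPM in MCF10A-TRAM2 A, against 49.0 to 49.3 CPM in the other 3 samples. BNIP3L, a mitophagy receptor, was at 80.49 CPM in MCF10A-TRAM2 B, against 63.8 to 65.7 CPM in the others, and MCF10A-TRAM2 B is the sample that lay apart on the second principal component.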

How the results depend on the processing

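In MCF10A-YAP5SA against control 691 of the values kept their direction and call, 9 changed sign, 8 gained a call and 12 lost one. The sign changed for MCL1 with a replicate block (0.018) and without single samples (-0.016 to 0.01), for BAK1 (-0.029 to 0.246), HRK (-0.972 to 0.837) and VDAC2 (-0.06 to 0.032) without single samples, and for FOXO1 with transcript length offsets (1.142). In MCF10A-TRAM2 against control, where no member was called, the sign changed for BCL2 (0.079), BMF (-0.392) and YAP1 (-0.012) with length offsets, for BBC3 (0.125) and BAX (0.012) in the first run alone, for BCL2L1 (-0.024) and BMF (-0.149) in the second, for YAP1 without the filter on low counts (-0.021), and without single samples for BCL2L1 (-0.02 to 0.086) and YAP1 (-0.022 to 0.016). The cause was not tested. The count of all genes called in that comparison, 9, was 136 without the filter, 67 over 10 libraries, 25 and 97 in the first and second run, 69 with a replicate block, 5 with length offsets and 3 to 39 without single samples.

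Library letters were not taken to pair the samples. Deviations of same-letter libraries correlated at 0.179 (A) and 0.0518 (B) between MCF10A-YAP5SA and MCF10A-TRAM2, at 0.00378 (A) and -0.0137 (B) between MCF10A-YAP5SA and control, and at -0.0418 to 0.0373 between MCF10A-TRAM2 and control. With the replicate block BBC3 was called in MCF10A-YAP5SA against control (-0.708, adjusted p = 0.0074 by edgeR) and against MCF10A-TRAM2 (-0.52, adjusted p = 0.0374 by edgeR). TRAM2 gained a call in MCF10A-TRAM2 against control with DESeq2 and, by edgeR, without the filter (adjusted p = 0.0299), over 10 libraries (0.0022), with the replicate block (0.0107), with length offsets (0.0331) and without MCF10A-TRAM2 B or C. Depth limits BCL2, BMF, HRK and TP63, which have few counts in MCF10A-YAP5SA.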
